A study of Mus musculus with 5 samples.

Results

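Adventitial fibroblasts are the connective tissue cells of the outer sheath of airways and large vessels. They were followed here in single-cell RNA counts of whole lungs from mouse embryos at stage E18.5. A barcode was taken as an adventitial fibroblast when it held at least 500 genes and at most 15% mitochondrial unique molecular identifiers (UMIs, one per captured RNA molecule). It also needed UMIs of at least 3 of the 6 genes Mfap5, Dpt, Clec3b, Pi16, Scara5 and Lum, and of at most 1 of the 6 alveolar fibroblast genes Wnt2, Npnt, Slc27a6, Fgfr4, Vegfd and Col13a1. Barcodes with a UMI of Ptprc, Epcam or Cdh5 (immune, epithelial and endothelial genes), or of both Mki67 and Top2a (dividing cells), were left out. This gave 493 adventitial fibroblasts among 19491 barcodes that met the gene and mitochondrial limits. The cells were selected on measured UMIs of these 17 genes, so the levels of the 17 genes are given as a description and were left out as outcomes of every test. Pi16 also serves below to divide the cells.

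The lungs came from 2 Zswim8+/- embryos (Het1 and Het2) and 3 Zswim8-/- embryos (KO1, KO2 and KO3), with 1 droplet-based 3′ library per embryo. No wild-type lung was analysed here, so the control embryos also carry 1 changed copy of Zswim8. The labels do not describe the allele, its deleted part, the strain or the litters. Zswim8 encodes a substrate receptor of a Cullin ubiquitin ligase that is known for target-directed breakdown of microRNAs. The design compares the 2 genotypes, and p-values measure the spread between these 5 embryos.

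Adventitial fibroblasts are known as a matrix-rich fibroblast type of the bronchovascular cuff. They lay down fibrillar collagens, elastic fibres and small proteoglycans, and in the adult lung they talk to immune cells and include cells that express Pi16. Alveolar fibroblasts, the nearest type in the lung, lie in the gas-exchange region and are known for lipid storage, retinoid handling and support of the epithelium.

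Adventitial fibroblasts numbered 60 in Het1, 100 in Het2, 127 in KO1, 65 in KO2 and 141 in KO3. Their summed UMIs were 831073 (Het1), 1321300 (Het2), 1634624 (KO1), 805176 (KO2) and 1898038 (KO3). The median cell held between 11571 UMIs (KO1) and 13174 UMIs (KO3). Of the 493 cells, 2 had a barcode sequence that also occurred among the barcodes of another library, and no such pair joined 2 adventitial fibroblasts. By their Xist and Y-linked UMIs, Het1, Het2 and KO3 were male and KO1 and KO2 female, so sex and genotype are partly tied.

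Mfap5, Dpt, Clec3b and Lum were found in most of the cells of each library. Pi16 was found in a minority of them, as was Scara5 in Het1 (38.3%). Entry required UMIs of at least 3 of the defining genes, so the rule itself raises these shares. The shares describe the cells, and their contrast with other barcodes does not test the choice of cells. Mfap5, a microfibril protein, had a UMI in 89.8% to 93.3% of the cells of each library, and Dpt, the matrix protein dermatopontin, in 89.2% to 93.3%. In Ptprc-positive barcodes, which should lack both genes, the shares were 1.5% to 3.72% for Mfap5 and 1.05% to 2.58% for Dpt, at median depths of 12743 to 14287 UMIs. Lum, the small proteoglycan lumican, was found in 70.0% and 77.0% of Het cells and in 90.6%, 81.5% and 92.9% of KO cells. Pi16, a protease inhibitor, was found in 24.6% of KO2 cells (95% exact binomial interval 14.8% to 36.9%) and in 40.0% of Het1 cells (27.6% to 53.5%), the lowest and highest libraries. Ptprc-positive barcodes held a Pi16 UMI in 15.2% to 22.8%, within the KO2 interval, whereas alveolar fibroblasts held at most 1.15 CPM of Pi16 against 31.05 to 75.81 CPM in adventitial fibroblasts. CPM is the usual unit of depth-scaled counts, here UMIs of a gene over all UMIs of the summed cells. Both fibroblast types were chosen by markers that include Pi16, which sets part of these levels. Whether the Ptprc barcodes measure a background common to all cell types for this gene was not tested. Intervals cover counting error only.

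One alveolar marker, Vegfd, had a UMI in 52.0% (Het2) to 72.3% (KO3) of the adventitial fibroblasts. Vegfd, a growth factor for lymphatic and blood vessels, stood at 190.0 to 266 CPM in adventitial fibroblasts of Het1, Het2, KO2 and KO3 and at 188 in KO1. In the alveolar fibroblasts of the same libraries it stood at 96.0 to 225 CPM. Wnt2, Slc27a6, Fgfr4 and Col13a1 reached at most 9.84 CPM in adventitial fibroblasts of any library, and Npnt reached 28.0. At most 1 alveolar marker was allowed and Vegfd often took that place, so the rule itself keeps the others low in these cells. Barcodes just outside the limit were many. With at least 3 adventitial markers and 2 alveolar ones there were 44, 61, 84, 55 and 82 barcodes in Het1, Het2, KO1, KO2 and KO3. Just inside the other limit, cells with exactly 3 adventitial markers numbered 16, 25, 25, 15 and 21 in the same order, and just outside it, barcodes with exactly 2 numbered 41, 38, 47, 32 and 50.

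Zswim8 (chromosome 14, 20707552 to 20723619, GRCm38) was measured in adventitial fibroblasts at 50.92 and 50.88 CPM in the Het libraries, and at 54.93, 52.67 and 51.25 CPM in the KO libraries. From here on, CPM uses TMM-scaled library sizes. Unless named, libraries are given in the order Het1 and Het2, then KO1, KO2 and KO3. The KO libraries were not lower, and the difference of 0.06 ± 0.18 (SE) in log2 had an edgeR adjusted p of 0.976. These are 3′ end counts, and a deletion elsewhere in the gene would leave them in place, so the level of Zswim8 RNA does not check the genotype labels.

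A further fact bears on all comparisons between the genotypes. Mesothelial cells, the lining of the pleura, share several genes with fibroblasts, and 3 of the 493 barcodes carried 7 or 8 of the 8 mesothelial markers Msln, Upk3b, Wt1, Lrrn4, Upk1b, Krt19, Rspo1 and Gpm6a. One was in Het1 (39875 UMIs, 8 markers) and the others in Het2 (68129 UMIs with 8 markers and 18175 UMIs with 7), each with exactly 3 adventitial markers. No other adventitial fibroblast of any library had more than 3 mesothelial markers. The 3 barcodes held 86.2% of the mesothelial UMIs of the Het1 cells (150 of 174) and 64.1% of those of the Het2 cells (293 of 457). The KO cells held 77, 36 and 71 such UMIs in the KO libraries. The shares and the genotype and type comparisons are also given without such barcodes, a step chosen after seeing the data.

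Adventitial fibroblasts made up 1.245% of the kept barcodes in Het1, 2.379% in Het2, 4.059% in KO1, 1.955% in KO2 and 3.513% in KO3. KO2 lay between the Het libraries, so the groups overlapped. The mean share was 1.81% ± 0.802 (SD) over the 2 Het embryos against 3.18% ± 1.09 over the 3 KO embryos, a difference of 1.36 percentage points (two-sided exact permutation test over embryos, p = 0.3). Without the mesothelial-marker barcodes the difference was 1.4 points (exact permutation p = 0.3). With 2 against 3 embryos this test cannot go below 0.1. A change in the number of these cells in the lung and a change in their recovery from it cannot be told apart in these shares.

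Among the barcodes taken as 1 of these 2 fibroblast types, the adventitial share was lower in the KO embryos. Alveolar fibroblasts, taken by at least 3 of the 6 alveolar genes and at most 1 adventitial gene, numbered 16 and 18 in the Het libraries and 86, 63 and 73 in the KO libraries. The adventitial share of both types together was 78.95% (Het1), 84.75% (Het2), 59.62% (KO1), 50.78% (KO2) and 65.89% (KO3). Every KO library lay below both Het libraries. The group means were 81.85% ± 4.10 (SD, n = 2) and 58.76% ± 7.59 (SD, n = 3), a difference of -23.1 percentage points at the smallest p this exact permutation test allows (p = 0.1). Without the mesothelial-marker barcodes of both types the shares were 79.73% (Het1), 87.5% (Het2), 60.48% (KO1), 52.42% (KO2) and 67.14% (KO3), a difference of -23.6 points (exact permutation p = 0.1). When each cell was thinned to 3000 UMIs the difference was -11.5 points (exact permutation p = 0.2). Barcodes with at least 3 markers of each type count as neither. Those with at least 3 adventitial and exactly 3 alveolar markers numbered 26 (Het1), 20 (Het2), 21 (KO1), 15 (KO2) and 16 (KO3). With up to 2 alveolar markers allowed in adventitial fibroblasts, chosen after seeing the data, the difference was -17.7 points (exact permutation p = 0.1). The share thus depends on where barcodes with both sets of markers are placed.

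**Figure D1:**
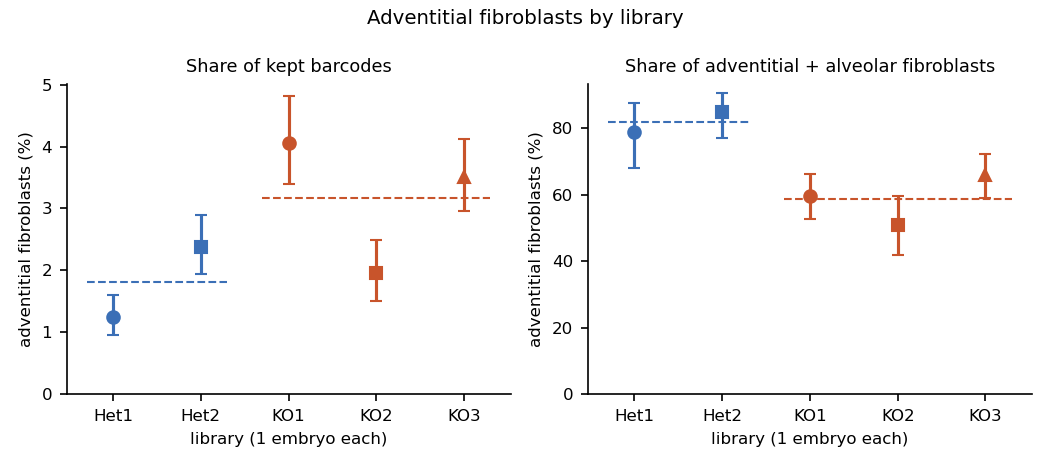
Adventitial fibroblasts as a percentage of kept barcodes (left) and of adventitial plus alveolar fibroblasts (right), by library, with exact 95% binomial intervals. Dashed lines are group means; on the left KO2 (1.955%) lies between the Het libraries, and on the right every KO library (50.78% to 65.89%) lies below both Het libraries.

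Gene levels in adventitial fibroblasts were compared between KO and Het embryos over library sums. Of 9118 genes tested with edgeR's quasi-likelihood test, 11 rose (0.121%) and 45 fell (0.494%) at a Benjamini-Hochberg adjusted p under 0.05. Without the 3 mesothelial-marker barcodes 20 genes of 8981 passed (0.223%), 7 of them higher and 13 lower in KO, and 18 of these 20 were also called with all members. All 20 share an adjusted p of 0.0496, just inside the threshold. The 18 genes are Itm2a, Igf1, Arsj, Nkx6-1 and Tnnt2, which rose, and Eln, Mgp, Htra1, Col15a1, Cd44, Tagln2, Igfbp2, Igfbp3, Stc2, Hspa1a, Hsp90b1, Lgr5 and Bmp4, which fell. In the text below, CPM and fold changes are without the 3 barcodes unless stated. Adjusted p values with sex or DESeq2, with other cell choices or with a library left out, and the shares of UMIs in 1 cell, are from all members, and such fits were not run without the 3 barcodes. In the fit with all members, 24.8% of the genes tested had groups that did not overlap, so that separation alone says little about a gene.

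**Figure D2:**
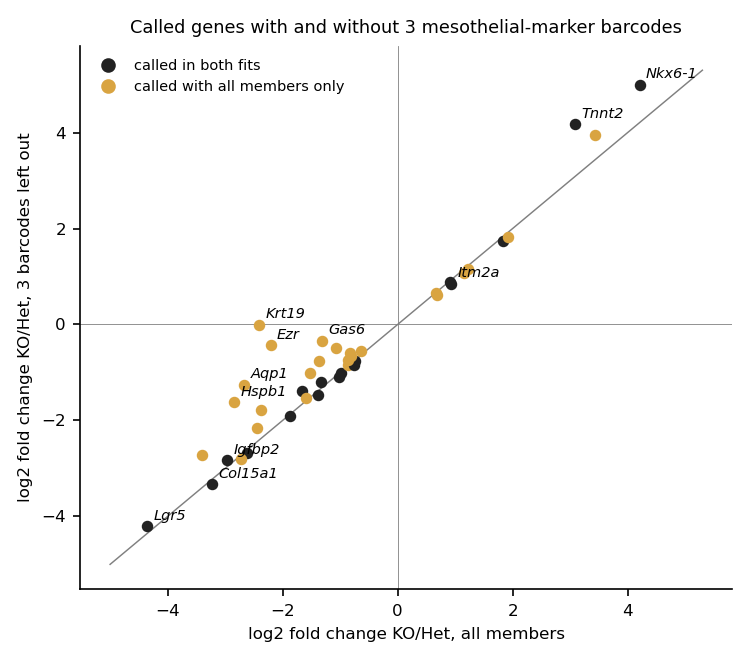
Log2 fold change (KO over Het) of genes called with all members, on the x axis with all 493 members and on the y axis without the 3 barcodes rich in mesothelial markers; the diagonal marks equal values. Black points (18 genes) passed in both fits and lie near the diagonal, while Krt19 moves from -2.41 to -0.0050 and Aqp1 from -2.67 to -1.25.

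Eln and Mgp, genes of the extracellular matrix, fell in the KO embryos, and Eln was the only one called of 17 elastic fibre genes. Eln, elastin, the core protein of elastic fibres (chromosome 5, 134702593 to 134747323, minus strand), was at 4542 and 3021 CPM in the Het libraries, and at 2101, 1668 and 1559 CPM in the KO libraries. Both Het libraries lay above all KO libraries, with a log2 fold change of -1.09 ± 0.17 (SE). Eln was the only gene called when 4 of the 6 adventitial markers were required (edgeR adjusted p = 0.049). One cell held 36.0% of the KO1 UMIs of Eln and 26.7% of those of Het1. With sex of the embryo as a covariate Eln did not pass (edgeR adjusted p = 0.0709, all members). With all members its call was lost without Het1 (adjusted p = 0.0677 by edgeR), without KO2 (0.153) and without KO3 (0.103).

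Mgp, matrix Gla protein, an inhibitor of calcification, stood at 4892 and 4086 CPM in the Het libraries and at 2997, 2660 and 2278 CPM in the KO libraries. The groups did not overlap, and Mgp fell by 0.76 ± 0.13 (SE) on the log2 scale. With all members (edgeR adjusted p = 0.0254) the call held with sex of the embryo as a covariate (0.0373), and it was lost without Het1 (0.121), KO2 (0.201) or KO3 (0.0897). Mgp was also 1 of only 2 genes called when every cell with UMIs of 3 or more markers of another cell type was left out (adjusted p = 0.0285), a step that leaves 13 to 35 cells a library.

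Htra1, a secreted serine protease that cleaves matrix proteins, was at 48.52 and 74.97 CPM in the Het libraries, against 22.43, 20.01 and 10.02 CPM in the KO libraries. Its log2 fold change was -1.91 ± 0.30 (SE), and with all members it passed with the sex covariate (edgeR adjusted p = 0.0235). Leaving out Het2 (0.0747), KO2 (0.0637) or KO3 (0.103) ended the call with all members. Cd44, the hyaluronan receptor, stood at 125.1 and 115.6 CPM in Het against 61.68, 67.53 and 72.23 CPM in KO, and Tagln2, an actin-binding protein, at 390.7 and 243.7 against 177.0, 151.3 and 138.7 CPM. Both genes separated the groups, and with all members both lost the call in the fit with sex (adjusted p 0.539 and 0.108 by edgeR). Cd44 did not pass without any 1 of the 5 libraries (0.0884 to 0.158) nor in DESeq2 (0.258), and Tagln2 not without Het1 (0.0945), KO2 (0.115) or KO3 (0.151).

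Col15a1, a collagen of the basement membrane zone, passed as well, yet its level rested on 1 embryo. It was at 19.15 CPM in Het1 and 164.0 CPM in Het2, against 16.20, 5.00 and 6.33 CPM in the KO libraries. Without Het2 the adjusted p was 0.76 (edgeR, all members). It was the only collagen chain called of 19 tested, and the median log2 fold change of the 19 was -0.0027 with all members, beside 0.0042 over all genes tested. Without the 3 barcodes the median was -0.0824, beside 0.0085. Of 17 genes of elastic fibre assembly only Eln was called, of 21 genes of collagen folding and crosslinking none, and of 14 small leucine-rich and large proteoglycans none.

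In the insulin-like growth factor (IGF) axis 3 of 14 measured genes were called, Igf1 higher and Igfbp2 and Igfbp3 lower, beside 0.223% called over all genes tested. The median log2 fold change of the 14 was -0.0928, beside 0.0085 over all genes tested. This family pairs the ligands Igf1 and Igf2 with binding proteins that hold them in the matrix. Igf1 (chromosome 10, 87858265 to 87937042) was at 201.8 and 306.9 CPM in the Het libraries, and at 458.0, 484.0 and 474.5 CPM in the KO libraries. All KO libraries lay above both Het libraries, and Igf1 rose by 0.88 ± 0.16 (SE) in log2.

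Of its binding proteins, Igfbp2 and Igfbp3 fell. Igfbp2 (chromosome 1, 72824503 to 72852474) was at 66.40 and 127.3 CPM in the Het libraries against 24.30, 17.51 and 3.16 CPM in the KO libraries. Its log2 fold change was -2.82 ± 0.44 (SE). With all members (edgeR adjusted p = 0.00935) it passed with the sex covariate (0.00511), and its call was lost only without KO2 (0.0637) among the 5 left-out libraries. In KO2, 92.9% of its 14 UMIs came from 1 cell, and in the other libraries the highest cell held 16.7% to 51.8%. DESeq2 did not call it (adjusted p = 0.489).

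Igfbp3 stood at 135.4 and 239.0 CPM in the Het libraries, and at 73.52, 45.02 and 90.68 CPM in the KO libraries, with no overlap and a log2 fold change of -1.39 ± 0.25 (SE). With all members the call was lost with the sex covariate (edgeR adjusted p = 0.534). Igfbp3 also lost it without Het2 (0.197), KO1 (0.0756), KO2 (0.122) or KO3 (0.103). Igf1 did not pass without Het1 (0.111), KO2 (0.114) or KO3 (0.144), nor with sex in the model (0.214). Each of the 3 called genes of the axis thus lost its call in at least 1 fit without a library. Stc2, a secreted glycoprotein of the stanniocalcin family, was at 14.05 and 24.21 CPM in Het and 4.36, 1.25 and 2.64 CPM in KO, from 1 to 32 UMIs a library.

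Hspa1a and Hsp90b1, which encode chaperones, fell in KO cells. Hspa1a, the inducible Hsp70 chaperone (chromosome 17, 34969190 to 34972156, minus strand), was at 90.66 and 71.07 CPM in the Het libraries, and at 38.01, 31.26 and 34.27 CPM in the KO libraries. The KO libraries lay close together and below both Het libraries, with a log2 fold change of -1.19 ± 0.19 (SE). With all members (edgeR adjusted p = 0.0035) Hspa1a was the gene among the 18 that kept its call without each library in turn, at 0.00195 to 0.0465. Adding sex to that fit raised its adjusted p to 0.0709. Hspa1a has a near-identical neighbour, Hspa1b, between which the counting could split reads, so its level is uncertain, and Hspa1b itself did not pass (log2 fold change -0.90, adjusted p = 0.413). Hsp90b1, the Hsp90 chaperone of the endoplasmic reticulum, stood at 1101 and 803.6 CPM in Het against 562.6, 516.5 and 570.4 CPM in KO, and its call was lost with sex in the model (0.37). Of 18 immediate early and stress genes Hspa1a was the only one called without the 3 barcodes, and 4 of the 18 had a log2 fold change above 0 with all members.

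Lgr5 and Bmp4 also fell. Lgr5, a receptor for R-spondins that strengthens Wnt signals, had 10 and 27 UMIs in all Het1 and Het2 cells, and 1, 2 and 0 UMIs in the KO libraries. Without the 3 barcodes the Het cells held 31 UMIs and the KO cells 3, a ratio of 22.1 after scaling to total UMIs (exact 95% counting interval 6.90 to 113). One cell held 50% of the Het1 UMIs. Lgr5 did not pass without Het2 (edgeR adjusted p = 0.0505) or KO2 (0.103), and without KO3 it was not tested. Bmp4, a ligand of the bone morphogenetic protein pathway, was at 58.74 and 53.11 CPM in the Het libraries against 12.46, 23.76 and 24.78 CPM in the KO libraries. Its groups did not overlap, and it fell by 1.47 ± 0.27 (SE) in log2. The sex covariate raised its adjusted p to 0.507 (edgeR), and leaving out KO1 (0.069), KO2 (0.111) or KO3 (0.0929) ended the call. Bmp4 was the only gene called of 15 tested for transforming growth factor beta and BMP signalling, and no Hedgehog gene was called of 9.

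The gene with the clearest rise was Itm2a, a type II membrane protein first described in cartilage and muscle differentiation (chromosome X, 107397099 to 107403376, minus strand). It was at 1514 and 1574 CPM in the Het libraries, and at 2432, 2652 and 3282 CPM in the KO libraries. No library overlapped, the highest cell held 2.76% to 9.60% of the UMIs, and the log2 fold change was 0.85 ± 0.14 (SE). KO3, the male KO library, was the highest. With all members the edgeR adjusted p was 0.00935, and with sex as a covariate 0.00459. The call was lost only without KO2 (0.0653) among the 5 left-out libraries.

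Arsj and Nkx6-1 rose from low levels. Arsj, an arylsulfatase family member, was at 7.66 and 7.81 CPM in the Het libraries and at 28.04, 27.51 and 23.72 CPM in the KO libraries, a log2 fold change of 1.74 ± 0.32 (SE). Nkx6-1, a homeobox transcription factor, had 1 UMI in each Het library with all members, and 15, 19 and 45 UMIs in the KO libraries. In the KO libraries the highest cell held 13.3% to 20% of the Nkx6-1 UMIs, so several cells carried it. Scaled to total UMIs, the ratio with all members was 19.6 (exact 95% counting interval 5.25 to 165). Arsj lost its call with sex in the model (edgeR adjusted p = 0.187) and Nkx6-1 came to 0.0531. With all members Arsj also did not pass without KO1 (edgeR adjusted p = 0.0619), KO2 (0.0887) or KO3 (0.0897). DESeq2 did not call Arsj either (adjusted p = 0.157).

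Others passed only with all members. Dlk1, an imprinted Notch-like protein of preadipocytes and mesenchyme, was at 1961 and 2106 CPM in the Het libraries and at 3121, 2867 and 3733 CPM in the KO libraries (log2 fold change 0.67 ± 0.13 SE, edgeR adjusted p = 0.0385). The groups did not overlap, and without the 3 barcodes the difference was 0.65 with an adjusted p of 0.0896. Dlk1 was the only one of 19 imprinted genes called, while 15 of the 19 had a log2 fold change above 0. The median of the 19 was 0.257 with all members, beside 0.0042 over all genes tested. Without the 3 barcodes it was 0.215, beside 0.0085. Dkk2 (a Wnt antagonist), Hpgd (prostaglandin breakdown), Pgm5 and Nrk came to adjusted p values of 0.0896, 0.0734, 0.0998 and 0.172 without the barcodes, with log2 fold changes of 1.83, 1.17, 1.07 and 0.61.

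Some rises came from single cells. Myl7, the atrial myosin light chain of heart muscle, had 10 and 7 UMIs in the Het libraries and 50, 47 and 296 UMIs in the KO libraries. One cell held 66.0%, 95.7% and 92.9% of the UMIs of KO1, KO2 and KO3. For Tnnt2, cardiac troponin T, 1 cell held 50%, 91.7% and 87.5% of the 42, 12 and 72 UMIs of the same libraries. Most of the KO2 and KO3 UMIs of both genes thus lay in 1 cell a library.

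**Figure D3:**
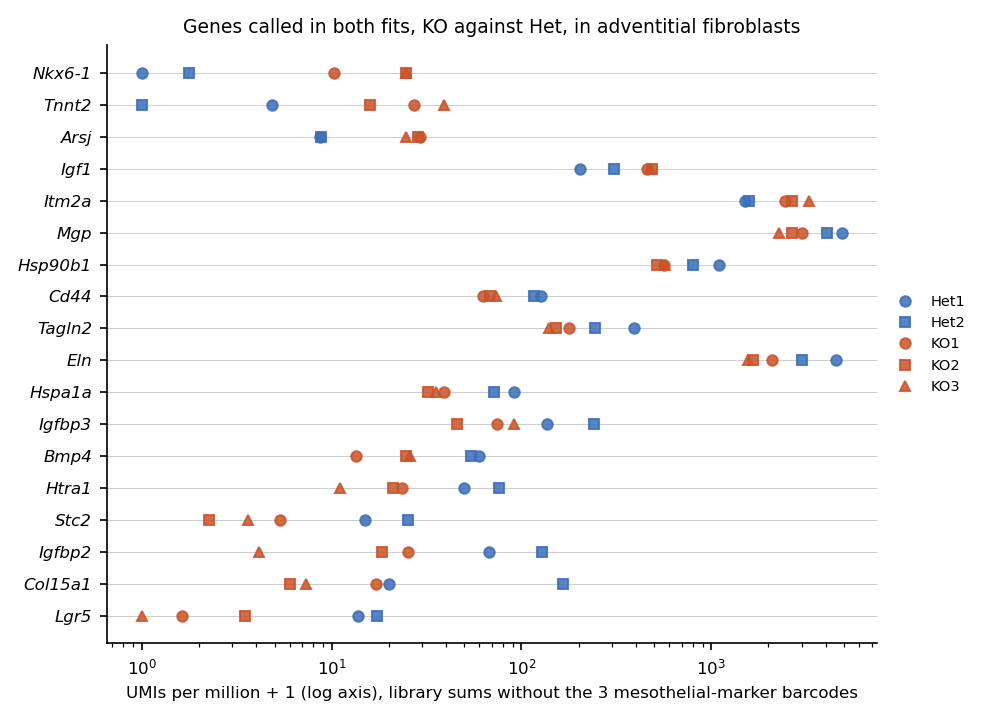
CPM plus 1 (log axis) of the 18 genes called with and without the 3 barcodes, each point a library (blue Het, orange KO), in sums without those barcodes. The largest separation from Het is seen at the ends, for Nkx6-1 and Lgr5, which rest on few UMIs, while Itm2a, Mgp and Eln are measured above 1500 CPM in every KO library.

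The largest falls of the fit with all members were those of mesothelial genes. Of the 8 mesothelial markers 6 were called lower, Upk3b, Wt1, Lrrn4, Upk1b, Krt19 and Gpm6a, beside 0.494% of all genes tested. Upk3b, a urothelial plaque protein that marks mesothelium, had 38 and 65 UMIs in the Het libraries and 2, 4 and 7 UMIs in the KO libraries, and 1 cell held 94.7% of the Het1 UMIs and 72.3% of those of Het2. Upk1b had 35 UMIs in Het and none in KO, so it was at least 23.5-fold higher in Het, against a floor of 3 UMIs over the KO group. Without the 3 barcodes only 3 of the 8 markers were abundant enough to test, and none was called. Krt19, a keratin, then stood at 8.94 and 13.28 CPM in Het and 13.71, 7.50 and 11.60 CPM in KO (log2 fold change -0.0050, edgeR adjusted p = 0.999).

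Several other named falls moved with the same barcodes. Aqp1, a water channel, came from a log2 fold change of -2.67 to -1.25 (edgeR adjusted p = 0.563), and Hspb1, a small heat shock protein, from -2.84 to -1.61 (0.297). Aldh1a2, the retinoic acid enzyme Raldh2, went from -1.52 to -1.02 (0.34). Gpm6a, Lgals7, Cxadr, Myrf and the complement gene C2 fell below the count filter once the barcodes were left out. Whether other cells also contribute to these differences was not tested.

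The remaining gene groups showed no call without the 3 barcodes. They include the 19 adventitial fibroblast markers outside the rule, for which the median log2 fold change with all members was -0.46, against 0.0042 over all genes, with 5 of 19 above 0. Without the 3 barcodes the median of these 19 was -0.281, against 0.0085 over all genes. The groups without a call also include 12 alveolar fibroblast markers, 9 alveolar myofibroblast markers, 6 smooth muscle markers, 7 pericyte markers and 11 cell cycle genes. Of the 33 lists, 5 had a called member without the barcodes. None of the 5 measured haemoglobin and red-cell genes passed. The direction of the 3 most abundant turned without Het1: the log2 fold change of Hbb-bs was -1.08 with all members and 0.92 without Het1, and those of Hba-a1 and Hba-a2 went from -1.12 and -1.04 to 0.89 and 0.74. Without Het2 the 3 genes were called lower (edgeR adjusted p 6.06e-06 for Hbb-bs). The summed smooth muscle markers in these cells ranged from 579 to 696 CPM in Het and from 357 to 901 in KO, and pericyte markers from 296 to 490 in Het and from 296 to 389 in KO, on unscaled totals. Their part in the differences was not tested.

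Sex weighs on the genotype comparison since both female embryos were KO. With sex of the embryo as a covariate 14 genes passed, 9 of them among the 56. Those 9 were Itm2a, Dlk1, Dkk2 and Myl7, which rose, and Igfbp2, Htra1, Mgp, Upk3b and Gpm6a, which fell. Without KO2 only 14 genes passed and without KO3 17, against 41 without KO1, 61 without Het2 and 88 without Het1. All 56 genes kept their direction with the sex covariate and with DESeq2, which called 30 of them.

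Compared with alveolar fibroblasts of the same libraries, adventitial fibroblasts differed in 1865 genes with all members, and collagen chains and imprinted genes were mostly higher. The types were chosen by other genes of the same cells, so this describes how far the rest of the transcriptome goes with that choice. With all members 1010 of 7774 genes were higher (13.0%) and 855 lower (11.0%) in adventitial fibroblasts, by edgeR with the library as a block. The alveolar fibroblasts also held barcodes with at least 5 mesothelial markers, 1 and 4 in the Het libraries and 3, 4 and 4 in the KO libraries, with 12.6% (Het1) to 44.8% (Het2) of their UMIs. Leaving these out of both types gave 1181 higher (16.2%) and 961 lower (13.1%) of 7310 genes, 1547 of the 2142 shared with the first fit. In the type comparison, values below are without these barcodes unless stated, as means over 5 libraries with SD. They are scaled over both types together, so they differ slightly from those above.

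Ebf2, Fst, Postn and Rtl3 were among the named genes with the largest differences. Ebf2, a factor of the early B-cell family that marks adipocyte precursors, stood at 80.20 ± 23.37 CPM in adventitial fibroblasts, and no alveolar fibroblast of any library held a UMI. It was at least 78.2-fold higher, against a floor of 3 UMIs over all alveolar fibroblasts. Its relative Ebf1 was at 346.3 ± 33.14 against 16.06 ± 10.44 CPM (log2 difference 4.08 ± 0.20 SE), and Ebf3 at 31.82 ± 10.93 against 0.290 ± 0.650 CPM. All 5 libraries went the same way for each of the 3 genes.

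Fst, follistatin, which binds activins, had 373 UMIs in adventitial and 1 in alveolar fibroblasts. Gdf10, a ligand of the transforming growth factor family, was at 107.2 ± 84.98 against 3.76 ± 2.41 CPM, and Ntrk2, the receptor of brain-derived neurotrophic factor, at 100.7 ± 16.02 against 10.69 ± 11.41 CPM. Fap, the fibroblast activation protease, stood at 65.44 ± 19.01 against 3.38 ± 3.09 CPM. Rtl3, a gene derived from a retrotransposon, was at 127.5 ± 28.18 against 1.16 ± 1.63 CPM, and Itih5, a hyaluronan-binding protein, at 315.6 ± 42.99 against 8.87 ± 7.20 CPM. Each of these genes was higher in all 5 libraries.

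Several matrix lists had most of their members higher, with the lists chosen with earlier results of these data known. For this and the following lists, the shares over all genes tested were 16.2% higher and 13.1% lower. Of 17 collagen chains 13 were higher and 2 lower in adventitial fibroblasts (median log2 difference 1.42, beside -0.0055 over all genes). Col1a1 and Col3a1, the fibrillar collagens I and III, stood at 13250 ± 2222 and 14840 ± 2642 CPM against 2819 ± 1203 and 2418 ± 725.4 CPM. Col18a1 and Col23a1 were the lower ones. Of 21 genes that fold and crosslink collagen 19 were higher and none lower, with a median of 0.97, and Serpinh1, the collagen chaperone, had 1301 ± 98.0 against 641.7 ± 64.15 CPM.

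Proteoglycans and matrix glycoproteins were also mostly higher, whereas matrix proteases and their inhibitors were divided. Of 13 small leucine-rich and large proteoglycans 11 were higher and 1 lower, and Dcn, decorin, was at 3448 ± 720.2 against 207.0 ± 132.5 CPM. Of 14 matrix glycoproteins 12 were higher and 1 lower; Postn, periostin, was at 1284 ± 240.5 against 22.31 ± 9.81 CPM (log2 difference 5.67 ± 0.18 SE), and Cthrc1 at 197.3 ± 90.55 against 18.30 ± 27.01 CPM. Of 14 matrix proteases and inhibitors 5 were higher and 4 lower (Mmp2, Adamts1, Adamts9 and Serpine2), with a median log2 difference of 0.38. Of 16 elastic fibre genes 11 were higher and Mfap4 lower. Fbn1, fibrillin 1, was at 688.6 ± 94.44 against 336.8 ± 95.58 CPM. For Eln itself no difference between the types passed the test, at 2583 ± 1248 against 3253 ± 2350 CPM (log2 difference -0.19 ± 0.19 SE, edgeR adjusted p = 0.516).

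Imprinted genes, expressed from 1 parental copy and often linked to fetal growth, were mostly higher. Of 18 measured, 16 were higher and 1 lower, with a median log2 difference of 1.87. Over all genes tested 16.2% were higher and 13.1% lower. Dlk1 was at 2769 ± 719.5 against 373.8 ± 190.0 CPM, Meg3, a noncoding RNA of the same cluster, at 5814 ± 490.8 against 1637 ± 455.7 CPM, and Peg3 at 1541 ± 94.29 against 461.0 ± 188.2 CPM. Igf2, the fetal growth factor, stood at 623.3 ± 169.5 against 104.3 ± 39.61 CPM. Nnat was the lower one. In the IGF axis 9 of 14 genes were higher and none lower, Igf1 with a log2 difference of 1.57 ± 0.18 (SE).

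Lipid genes divided between the types. Ebf1, Ebf2, Ebf3, Lpl and Fabp4 were higher in adventitial fibroblasts, and Cebpb, Cebpd, Plin2 and Apoe lower. Fabp4, a fatty acid carrier, was at 232.0 ± 182.1 against 7.49 ± 10.59 CPM, while Plin2, a coat protein of lipid droplets, was at 26.66 ± 5.85 against 170.2 ± 34.08 CPM. Cxcl12, a chemokine of stromal cells, was at 286.5 ± 74.48 against 42.81 ± 14.92 CPM. Cxcl13, a B cell chemokine, was at 103.2 ± 65.03 against 3.07 ± 3.30 CPM, and Il33, an alarmin, at 63.65 ± 28.74 against 2.94 ± 3.02 CPM. Over all members, 1 adventitial cell held 71.7% of the Het2 UMIs of Cxcl13. Fabp4, Cxcl12, Cxcl13 and Il33 were higher in all 5 libraries, and Plin2 was lower in all 5.

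Markers outside the rule followed the types. Of 16 further adventitial markers measured 14 were higher and none lower, with a median log2 difference of 2.03. Of 13 further alveolar markers 11 were lower, among them Tcf21, a mesenchymal transcription factor, at 186.1 ± 64.53 against 588.7 ± 184.3 CPM, and Fgf10, a growth factor for the epithelium, at 25.09 ± 6.66 against 87.21 ± 12 CPM. Lpl and Gpc3 of that list were higher in adventitial fibroblasts. The strongest falls outside the lists were Col25a1, a membrane collagen, at 0.443 ± 0.699 against 126.5 ± 50.10 CPM, Nebl, Fam210b, Car2 and Frem1, all lower in 5 of 5 libraries. With mesothelial barcodes kept, Upk3b, Lrrn4, Upk1b, Podxl and Muc16 also stood among the largest falls, from 51.29 ± 24.14 CPM (Muc16) to 359.2 ± 128.2 CPM (Upk3b) in alveolar fibroblasts.

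Those barcodes turned the direction of some genes. Aldh1a2 was lower in adventitial fibroblasts with all members (log2 difference -1.90 ± 0.26 SE), and without them it stood at 32.22 ± 16.53 against 0.451 ± 1.01 CPM (185 UMIs against 2). Igfbp6, a binding protein of Igf2, went from -1.16 to 1.83 in log2. Igfbp5 went from 0.43, which did not pass (edgeR adjusted p = 0.297), to 4.39, and Sfrp2, a secreted Wnt inhibitor, from -0.14 (0.785) to 2.44. Igf2 went from 0.93 to 2.77 and H19 from 0.70 to 1.86, keeping their direction.

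**Figure D4:**
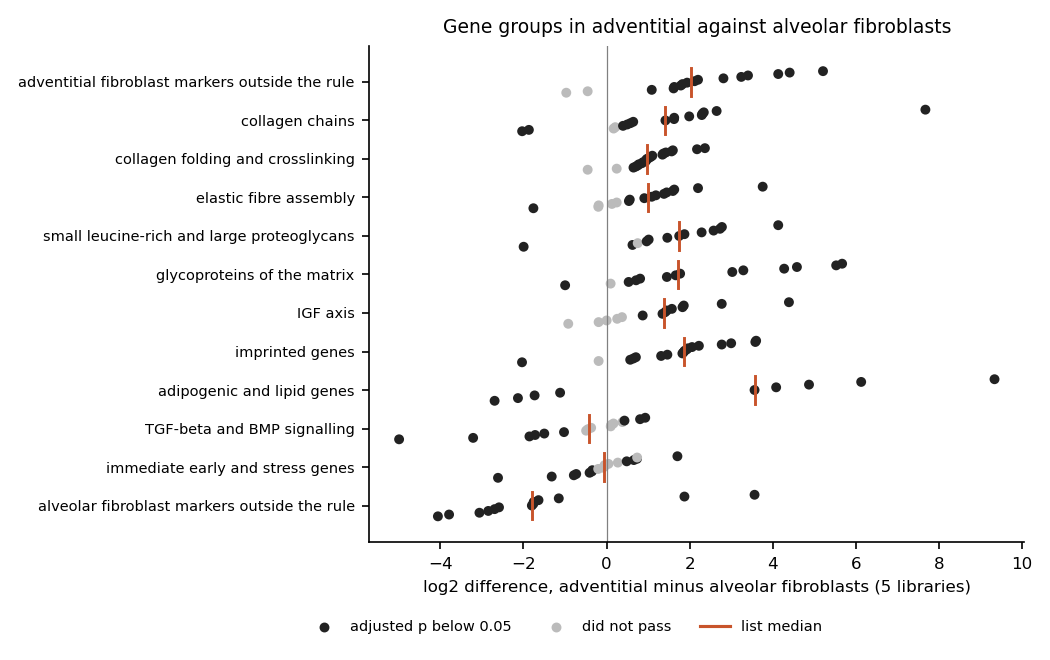
Log2 difference between adventitial and alveolar fibroblasts for each measured gene of 12 lists, over 5 libraries without mesothelial-marker barcodes; black points passed at an adjusted p under 0.05, and red bars are list medians. Collagen folding genes (19 of 21 higher) and imprinted genes (16 of 18 higher) lie to the right of 0, and the alveolar markers (11 of 13 lower) to the left.

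The genotype difference of adventitial fibroblasts was set against that of alveolar fibroblasts by the genotype by type term. With all members 7 of 9195 genes passed (0.0761%) in edgeR, 2 with a larger KO minus Het difference in adventitial fibroblasts, Cd24a and Dlk1, and 5 with a smaller one, Gpm6a, Upk3b, Aqp1, Tnfaip6 and Hspb1. Dlk1 was at a mean of 2097 CPM in Het and 3335 CPM in KO adventitial fibroblasts, and at 641.8 CPM in Het and 393.6 CPM in KO alveolar fibroblasts. None of the 18 genes called in both genotype fits was among the 7. For Eln the difference between the types was -0.05 ± 0.28 (SE, adjusted p = 0.988), for Mgp 0.15 ± 0.16 (0.904) and for Itm2a -0.04 ± 0.32 (0.997).

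The alveolar levels of Eln, Mgp and Igf1 that follow are with all members. Mesothelial-marker barcodes held 12.6% (Het1) to 44.8% (Het2) of the UMIs of those alveolar sums. Eln in alveolar fibroblasts stood at 2844 and 3887 CPM in the Het libraries and at 2172, 2088 and 1108 CPM in the KO libraries. Mgp there stood at 5424 and 6222 CPM in Het against 3103, 3229 and 3030 CPM in KO. With these barcodes kept, every KO library of the alveolar type also lay below both Het libraries in both genes. The order of the libraries without them is not given here. Igf1 was at 127.4 and 133.8 CPM in Het alveolar fibroblasts and 88.06, 139.9 and 128.4 CPM in those of the KO libraries, where the groups overlapped, and its type difference did not pass (1.08 ± 0.27 SE, adjusted p = 0.237). Without mesothelial-marker barcodes 2 genes passed, Plagl1 and Ogn, and none of the 7, and without KO3 no gene passed (467 at an unadjusted p under 0.05 in edgeR). The Het alveolar sums rest on 16 and 18 barcodes, which limits this comparison.

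The cells were further divided by detection of Pi16. Pi16 is 1 of the 6 markers of the rule, so a cell with Pi16 needed 2 other markers to enter and a cell without it 3, and the first comparison is given as a description. Cells with a Pi16 UMI numbered 24, 31, 36, 16 and 42 in Het1, Het2, KO1, KO2 and KO3, and their median depth was 12257.5 to 13443.5 UMIs, against 10600.5 to 13226 UMIs in the cells without one. In edgeR with the library as a block, 12 of 5860 genes differed (0.205%), 6 higher and 6 lower in the cells with Pi16. Among members with at least 3 of the 5 markers other than Pi16, where entry was equal, 21, 29, 35, 14 and 40 cells had Pi16, and 52 of 5707 genes differed (0.911%), 11 of the 12 among them, a step chosen after seeing the data. These comparisons share the cells of each library and rest on a gene seen in a minority of them.

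Igfbp5, an IGF-binding protein, was higher in Pi16 cells in every library. It stood at 1136, 2062, 1528, 1243 and 1558 CPM in Het1, Het2, KO1, KO2 and KO3 with Pi16, and at 583.5, 742.3, 386.4, 530.8 and 599.5 CPM without. The lowest value with Pi16 lay above the highest without, and the log2 difference was 1.42 ± 0.11 (SE). With equal entry it was 1.35 ± 0.12 (SE, edgeR adjusted p = 2.73e-06). The Het2 sum with Pi16 by the entry of the rule includes a mesothelial-marker barcode of 68129 UMIs, which equal entry leaves out. In Het2, 1 cell held 28.0% of the Igfbp5 UMIs of all members. Cd55, a regulator of complement on the cell surface, was at 54.79 ± 11.49 against 24.10 ± 4.64 CPM (SD, n = 5). Cd248, endosialin, was at 212.3 ± 30.61 against 144.2 ± 18.28 CPM, and Gsn, gelsolin, at 1756 ± 302.8 against 1354 ± 330.5 CPM. Akap12, a kinase anchor, and Bc1, a small noncoding RNA, completed the 6, and each was higher in 5 of 5 libraries.

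Cxcl13 was lower in the cells with Pi16. It stood at 2.72, 9.97, 9.32, 38.11 and 6.89 CPM in Het1, Het2, KO1, KO2 and KO3 with Pi16, and at 19.97, 183.9, 257.6, 112.5 and 122.6 CPM without. Every library went the same way, with a log2 difference of -3.71 ± 0.31 (SE), and with equal entry it was -3.66 ± 0.31. Fabp4 was at 99.07 ± 84.16 against 284.3 ± 216.1 CPM, also lower in 5 of 5 libraries. Rasl11a (a Ras-like protein), Arid5b (a chromatin factor) and Tmem176a were lower in all 5, and the sixth gene, Myl7, comes from the single cells named above.

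With the entry of the rule, Igfbp5, Cxcl13 and Fabp4 passed without each library in turn. Akap12, Bc1, Gsn, Cd55 and Cd248 did not pass without KO3 (edgeR adjusted p from 0.219 for Cd55 to 0.438 for Bc1), without Het2 (0.0588 for Akap12 to 0.143 for Bc1) or without KO2 (0.0565 for Cd55 to 0.137 for Bc1). Gsn, Cd55 and Cd248 also failed without KO1 (0.119 to 0.2). Rasl11a, Arid5b and Tmem176a did not pass without KO1 (0.0719 to 0.236) or without KO3 (0.259 each), and Tmem176a (0.0523) and Arid5b (0.146) not without KO2. Without the mesothelial-marker barcodes 20 genes passed, 11 of the 12 among them.

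**Figure D5:**
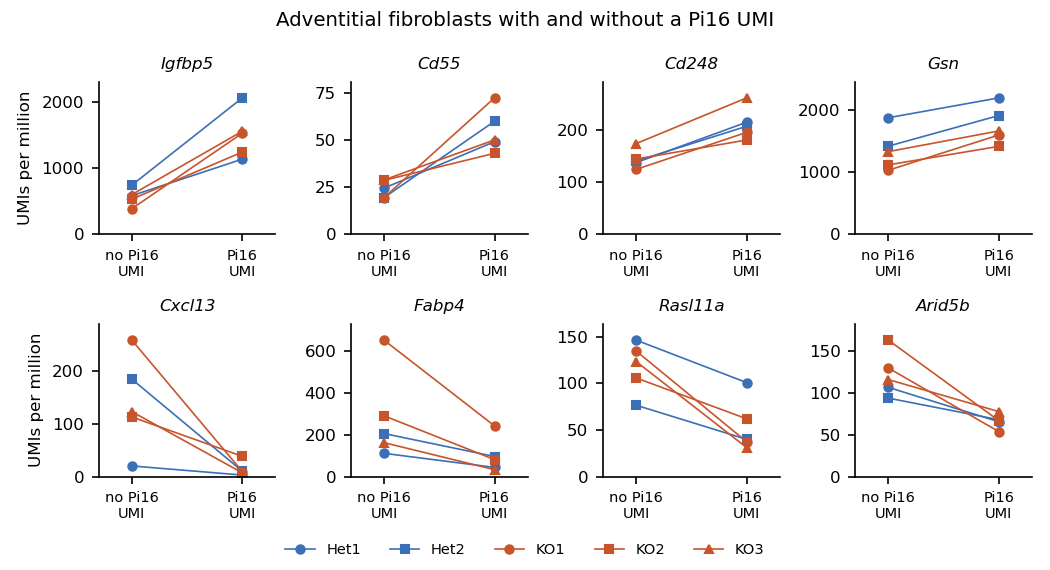
CPM in adventitial fibroblasts (all members, mesothelial-marker barcodes included) without and with a Pi16 UMI, each line a library (blue Het, orange KO), for 8 of the 12 called genes. This is a description, since Pi16 is a marker of the rule. Igfbp5, Cd55, Cd248 and Gsn go up in every library and Cxcl13, Fabp4, Rasl11a and Arid5b go down, with Igfbp5 between 1136 and 2062 in cells with Pi16.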

How the data were processed

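Single-cell 3′ RNA was counted in lungs of 5 embryos. The authors deposited raw UMI counts for each barcode; the file headers name Cell Ranger 4.0.0, and the genome was mm10 per the submitters' processing notes. The filter on barcodes is not given in the sources used here. Counts of 32285 genes were read, and coordinates came from GENCODE M21 (GRCm38). Doublets were not called. UMIs were summed per library over the cells of the rule, and cells were not treated as replicates. Sums were fitted with edgeR 4.0.16 in R 4.3.3 (TMM, filterByExpr, quasi-likelihood test, Benjamini-Hochberg adjusted p under 0.05). Shares were compared by exact permutation over embryos. Alternatives included DESeq2 1.42.0, other marker numbers, thinning, sex, a replicate block, and leaving out single libraries. The members and gene lists were chosen with earlier results of these data known.

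Named genes: in the genotype fit, up to 10 called genes in each direction with the largest change, groups that do not overlap and at least 20 CPM; elsewhere up to 10 (types), 6 (Pi16) or 5 (genotype by type) with at least 50 CPM and the same sign in all libraries. Called list members and up to 3 of the highest were added. The 18 genes called in both genotype fits, and genes whose direction the mesothelial barcodes turned, were chosen after their values were seen. In simulated counts with known changes of 1 in log2, the genotype fit recovered 53.2% of the changed genes (8844 genes run, 6 false calls), the type fit 82.3% (7484 genes, 7 false), the Pi16 fit 84.1% (5647 genes, 2 false) and the genotype by type fit 4.66% (8788 genes, 0 false). For changes of 2 in log2 the shares were 96.2% (8806 genes, 5 false), 100% (7526, 3 false), 100% (5590, 14 false) and 53.3% (8586, 3 false), in the order genotype, type, Pi16 and genotype by type. The simulation gave each unchanged gene 1 mean over all sums and a spread taken from the trend over genes. Recovery in the data may therefore be lower.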

Additional observations from a re-analysis of the deposited data

Results flagged for a closer look

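The KO minus Het difference of adventitial fibroblasts differed from that of alveolar fibroblasts for 7 genes by the test of the difference itself (edgeR, adjusted p from 0.00485 to 0.0248). On the log2 scale the adventitial difference exceeded the alveolar one by 2.61 for Cd24a and by 1.36 for Dlk1. It lay below it by -5.75 for Gpm6a, -3.60 for Upk3b, -3.59 for Aqp1, -3.23 for Tnfaip6 and -2.44 for Hspb1. Tnfaip6, a hyaluronan-binding protein, was at a mean of 56.62 CPM in Het and 44.90 CPM in KO adventitial fibroblasts, and at 12.33 and 95.75 CPM in the alveolar fibroblasts. Cd24a was at 26.02 and 43.08 CPM in adventitial and 101.5 and 28.97 CPM in alveolar fibroblasts. Cd24a is also found on red cells, at 0.421 to 0.836 UMIs per red-cell barcode. Adventitial fibroblasts held 0.31 to 0.554 UMIs of it per cell. That was below the red-cell barcodes in Het1, Het2 and KO1 and above them in KO2 and KO3. The part of Cd24a as free RNA was not tested. None of the 7 passed without the mesothelial-marker barcodes.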

How the results depend on the processing

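The genotype count of 56 genes moved with most choices: 31 with DESeq2, 211 with no low-count filter, 14 with sex, 19 with at least 2 and 1 with at least 4 adventitial markers, 2 with cells holding markers of other types left out, and, chosen after seeing the data, 21 with at most 2 alveolar markers, 20 without mesothelial barcodes and 28 without cells holding 50% of another type's markers; leaving out 1 library gave 14 to 88. With library size alone (61) and stricter cell limits (57) it stayed within 1.5 times. Of the 56, 1 gene of 39 tested turned with at least 4 markers (Krt19, to 0.0798), and 1 of 26 tested with cells holding markers of other types left out; elsewhere those tested kept their direction. The genotype by type count of 7 became 18 with DESeq2, 25 with library size alone, 119 with no filter, 2 without mesothelial barcodes and 50 without the 50% cells, and 0 to 24 without 1 library. The type count of 1865 became 1219 with DESeq2 and 845 after thinning, and 1223 to 1921 without 1 library. The Pi16 count of 12 became 5 with DESeq2, 7 with library size alone, 131 with no filter, 20 without mesothelial barcodes, 52 with at least 3 of the 5 markers other than Pi16 (chosen after seeing the data), and 4 to 57 without 1 library. Both share differences kept their direction in every setting run (0.797 to 1.97 and -26.6 to -19.1 points without 1 library). Replicate numbers are shared by 2 pairs, and deviations of the same-numbered libraries did not go together (r = -0.138 and -0.0613 over 2671 genes). The deviations of the 2 Het libraries mirror each other, so these values cannot decide whether the numbers pair embryos. With the replicate block 13 genes passed, 8 among the 56, and the shares differed by 1.2 and -26.7 points. The 2 Het libraries limit every genotype comparison.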

Other observations

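Het2 stood apart for a group of genes with and without the mesothelial barcodes. Wt1, a transcription factor of mesothelium and some mesenchyme, was at 92.94 CPM in Het2 without those barcodes, at 0 in Het1, and at 14.33, 16.26 and 6.85 CPM in the KO libraries. With all members, 1 Het2 cell held 9.85% of its Wt1 UMIs, so several cells carried it. Enpp2, autotaxin, which makes lysophosphatidic acid, was at 100.7 CPM in Het2 and at 2.55 CPM in Het1, against 4.22 to 17.51 CPM in KO, and Col15a1 was at 164.0 CPM in Het2 and 19.15 CPM in Het1. These genes were chosen after their values were seen, and the Het libraries differ more from each other here than either genotype mean can describe.

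Cited2, a transcriptional co-regulator, and Cttnbp2, a cortactin-binding protein, passed only without the mesothelial barcodes. Cited2 was at 56.18 and 53.11 CPM in the Het libraries and at 98.45, 100.0 and 102.8 CPM in the KO libraries, with no overlap (log2 fold change 0.88 ± 0.16 SE, edgeR adjusted p = 0.0496). Cttnbp2 was at 3.83 and 2.34 CPM in Het against 16.20, 22.51 and 16.87 CPM in KO.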
